A study of Mus musculus with 8 samples.

Results

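*Gcg*, *Ttr* and *Gc* encode 3 proteins that the α-cells of the islet secrete, and they were followed as the rows of these gene symbols, 3 of the 19945 genes in the deposited count table. Islets were handpicked from wild-type mice and analysed by droplet-based single-cell RNA sequencing, with 1 library from vehicle-treated and 1 from FAKi-treated mice. FAKi (PF562271), an inhibitor of focal adhesion kinase, was given by oral gavage for 3 weeks, with 2 daily doses of 50 mg/kg. The vehicle group received the carrier on the same schedule, and both were followed by 10 days without dosing before the islets were collected. Mice were 6 to 12 weeks old when experiments of the study began, and islets of 5 mice were pooled in each library. The 8 deposited samples were taken to be 4 lanes for each of these libraries. The design thus holds no replicate, and no test across samples was possible.

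*Gcg* encodes proglucagon, which the convertase PC2 cuts to glucagon in the α-cell, the hormone that raises blood glucose by releasing it from the liver. *Ttr* encodes transthyretin, a carrier of thyroxine and, with retinol-binding protein, of retinol, made mainly in the liver and choroid plexus and also in the islet. *Gc* encodes the vitamin D-binding protein, a plasma carrier of the albumin family that also binds actin monomers.

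The promoters of *Gcg* and *Gc* are shown because the 2 genes had different ranges across the islet cells. *Gcg* lies on chromosome 2 (62474530 to 62483653) and *Gc* on chromosome 5 (89417511 to 89457898), both on the minus strand of GRCm38.p6. The 250 bases before each RefSeq start site are given 5′ to 3′, at chr2:62483654-62483903 and chr5:89457899-89458148, with matches to 4 motifs in capitals. The motifs, searched on both strands, were the TATA box TATAAA, a forkhead core TATTTAC, a Maf half-site TGCTGA and an HNF1 core TTAATNATT.
Gcg: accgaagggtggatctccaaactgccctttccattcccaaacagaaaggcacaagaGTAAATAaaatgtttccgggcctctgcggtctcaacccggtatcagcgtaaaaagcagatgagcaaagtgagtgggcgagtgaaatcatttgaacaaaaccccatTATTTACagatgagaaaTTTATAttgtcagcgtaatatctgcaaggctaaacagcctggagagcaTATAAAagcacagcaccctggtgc
Gc: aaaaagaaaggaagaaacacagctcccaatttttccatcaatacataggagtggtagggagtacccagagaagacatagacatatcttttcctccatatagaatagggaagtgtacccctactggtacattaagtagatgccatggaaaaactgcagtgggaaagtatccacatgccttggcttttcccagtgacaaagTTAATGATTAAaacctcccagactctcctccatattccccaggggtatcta
The *Gcg* window held 2 TATA box matches, the nearer starting 24 bases before the start site, and 2 forkhead matches, starting 89 and 194 bases before it. Of 32851 RefSeq windows of this length, 12.4% held the TATA box and 2.73% the forkhead core. The *Gc* window held 2 overlapping matches to the HNF1 core, starting 51 and 49 bases before the start site, a motif found in 1.40% of windows. The Maf half-site, found in 16.1% of windows, was matched in neither. *Ttr* is named only.

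The table held 6959 cells, 3776 with vehicle and 3183 with FAKi, with 59514118 and 57836783 unique molecular identifiers (UMIs, counts of captured transcripts). The median cell had 10101.5 and 13688 UMIs, and 4 cell barcodes occurred in both libraries. The authors annotated 273 vehicle and 434 FAKi cells as α-cells, in clusters 5 and 9. Cluster 5 was led by *Gcg*, *Edn3*, *Irx1* and *Irx2*, the latter 2 being α-cell transcription factors. All 7 α-cell markers, the 3 members among them, were detected in the summed α-cells of both libraries. So were all 5 acinar and all 7 β-cell markers, so detection in such a sum does not set the class apart. Since α-cell markers define the annotation, levels of α-cells against other classes are given as a description. Cluster 9 was also led by *Gcg*, but *Sst*, the hormone of δ-cells, was at 50000 UMIs per 1000000 (CPM, of all UMIs of the cell or class) or more in 32 of its 87 vehicle cells and 49 of its 168 FAKi cells. Cluster 8, annotated as δ-cells, went against that label. Its leading genes were *Ppy* and *Pyy*, which encode pancreatic polypeptide and peptide YY, so the δ-cells are given as cluster 6, led by *Sst*, and cluster 8. The endothelial and immune classes, which should lack islet hormones, served as the background (953 vehicle and 361 FAKi cells). The class annotated as T-cells among them was led by *Prtn3*, *Elane*, *Ctsg* and *Mpo*, genes of immature granulocytes, beside the T-cell genes *Cd3g* and *Cd3d*. Values are given as those with vehicle and with FAKi, meaning the respective library.

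*Gcg* was by far the most abundant member in α-cells. Summed over the class, *Gcg* was at 237273 CPM with vehicle (95% Poisson interval 236783 to 237764) and at 267183 CPM with FAKi (266770 to 267597). Intervals here and throughout cover counting error only. *Ttr* was at 13658 CPM in the vehicle α-cells and at 13097 CPM in the FAKi α-cells. *Gc* was far lower, at 302 CPM (285 to 320) with vehicle and 206 CPM (195 to 218) with FAKi. Library preparation read the 3′ ends of transcripts, so these levels are per molecule counted and not per length.

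**Figure D1:**
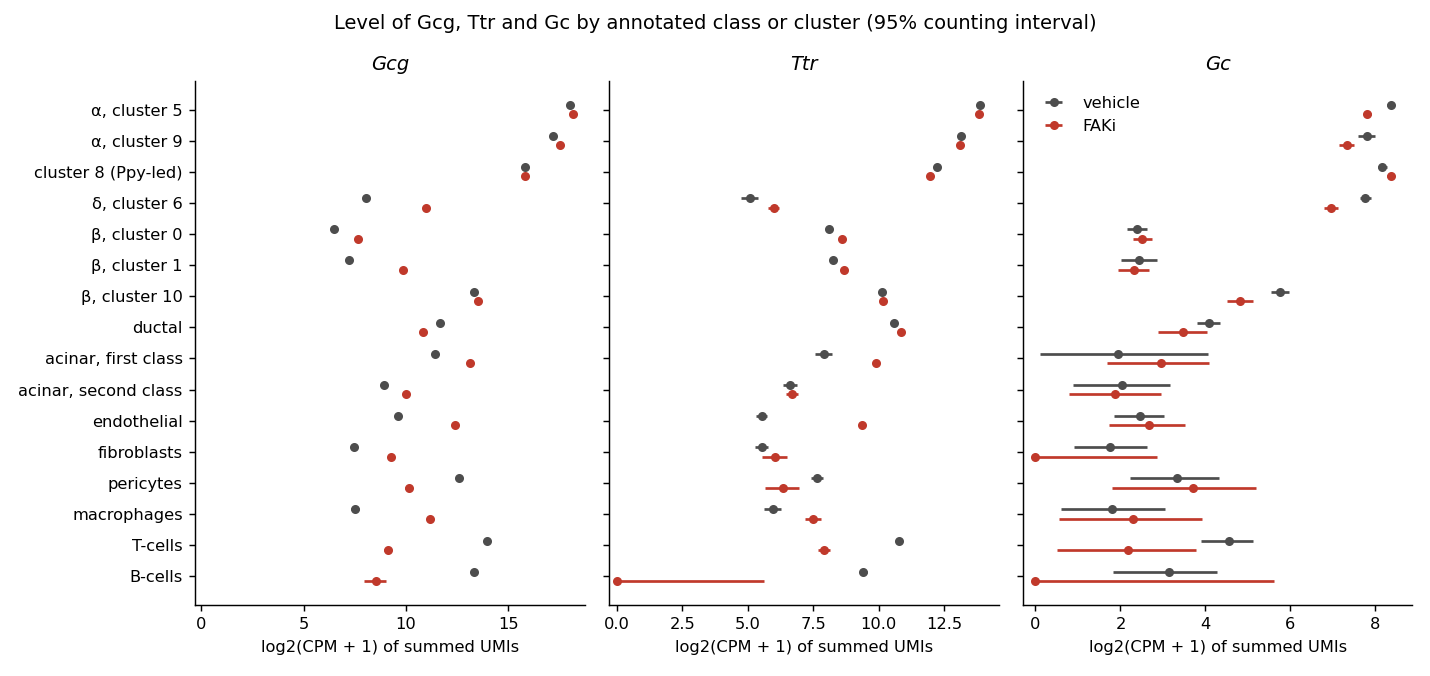
Level of *Gcg*, *Ttr* and *Gc* on the log2(CPM + 1) scale (x axis) in each annotated class or cluster (y axis), for the vehicle library (grey) and the FAKi library (red), with 95% Poisson intervals as bars. *Gcg* and *Ttr* are highest in α-cell clusters 5 and 9, whereas *Gc* in δ-cell cluster 6 (216 and 124 CPM) and in cluster 8 (286 and 327 CPM) stands beside 302 and 206 CPM in α-cells.

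*Gcg* was 207-fold higher in α-cells than in all β-cells of the vehicle library (205 to 209) and 194-fold higher with FAKi (192 to 196). *Ttr* was 37.2-fold higher (36.5 to 38.0) and 29.0-fold higher (28.5 to 29.4). *Gc* was 32.4-fold higher in either library, with intervals of 28.6 to 36.8 and 28.2 to 37.3. All 3 genes were thus at least 1.5-fold higher in α- than in β-cells of both libraries, as were 39.6% of the 11522 genes compared. A few β-cells carried much of the β-cell level of *Gcg*, since 8 of 1076 vehicle cells held 59.7% of its UMIs and 13 of 1336 FAKi cells 70.8%, and 9 of those 13 were called doublets. Between α-cell cluster 5 and β-cell cluster 0, which held no cell at 50000 CPM of *Gcg*, the ratio of *Gcg* was 2977 (2850 to 3112) with vehicle and 1465 (1424 to 1507) with FAKi. There the ratio of *Gc*, at 77.0 (62.4 to 96.0) and 47.3 (39.0 to 57.9), lay above that of *Ttr*, at 55.1 (53.6 to 56.6) and 38.5 (37.7 to 39.4), although the FAKi interval of *Gc* reached that of *Ttr*.

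Against δ-cell cluster 6 the 3 genes were further apart. *Gcg* in α-cells exceeded cluster 6 by 891-fold (823 to 966) with vehicle, and *Ttr* by 414-fold (331 to 526). With FAKi these values were 131 (128 to 135), with 76.1% of the *Gcg* UMIs of cluster 6 in 1 cell, and 210 (180 to 247). *Gc* of vehicle α-cells exceeded cluster 6 by 1.40-fold (1.26 to 1.55), and by 1.67-fold (1.47 to 1.89) with FAKi. Cluster 6 held *Gc* at 216 CPM (197 to 236) with vehicle and 124 CPM (110 to 138) with FAKi. At least 1 *Gc* UMI was found in 64.9% of the vehicle cluster 6 cells, with a median depth of 12519.5 UMIs per cell, against 1.36% of the background cells, with a median of 5186. With FAKi the shares were 55.9% and 1.66%, at median depths of 12747 and 4883 UMIs. The *Ttr* level of cluster 6 was 33.0 CPM with vehicle and 62.4 CPM with FAKi, where 1 cell held 37.7% of the UMIs, and both lay below every β-cell cluster.

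Cluster 8, led by *Ppy* and *Pyy*, had *Gc* at 286 CPM (265 to 308) with vehicle and 327 CPM (306 to 348) with FAKi. The level of α-cells over cluster 8 was 1.06 (0.96 to 1.16) with vehicle and 0.63 (0.58 to 0.69) with FAKi. *Gcg* in cluster 8 came almost wholly from a minority of cells. The 23 of 140 vehicle cells and 33 of 163 FAKi cells at 50000 CPM or more held 98.5% and 98.9% of its *Gcg* UMIs. Without those cells *Gc* was at 295 and 349 CPM, and *Gcg* was at 999 and 744 CPM.

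In β-cell cluster 0, the deepest of the β-cell clusters, *Gcg* was at 88.8 CPM with vehicle and 201 CPM with FAKi, below *Ttr*. *Ttr* was at 273 CPM (266 to 280) with vehicle and 382 CPM (374 to 390) with FAKi, with a median of 7 and 10 UMIs per cell. *Gcg* had a median of 3 and 7 UMIs per cell, and the background cells a median of 1 and 3. The background cells had a median of 0 *Ttr* UMIs in both libraries, at median depths of 5186 and 4883 UMIs against 34677 and 34237 in cluster 0. The summed *Ttr* level of the background classes was higher than that of cluster 0, at 363 and 459 CPM, with 65.7% and 36.8% of the UMIs in 1 cell. In cluster 0 there were 308 *Ttr* UMIs for every 100 *Gcg* UMIs with vehicle and 190 with FAKi. In α-cells there were 5.76 and 4.90. *Gc* was at 4.24 CPM and 4.72 CPM in cluster 0, within the interval of the background classes with FAKi (2.33 to 7.88 CPM) and below it with vehicle (5.23 to 9.47 CPM). Those background levels rested on 47 and 12 *Gc* UMIs. Without the 4 vehicle and 3 FAKi background cells at 50000 CPM of *Gcg* or more, 20 and 6 were left.

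Outside the endocrine cells, *Ttr* was highest in ductal cells, except for the vehicle T-cells. The ductal level was 1518 CPM (1488 to 1549) with vehicle and 1849 CPM (1792 to 1907) with FAKi. The median ductal cell held 8 and 11.5 *Ttr* UMIs, and 88.0% and 95.5% of ductal cells held at least 1. Among background cells the shares were 11.6% and 23.3%, at median depths of 5186 and 4883 UMIs against 9546 and 9661.5 in ductal cells. The median *Gcg* count of ductal cells was 1.5 and 5 UMIs. The T-cell level of *Ttr* with vehicle, 1748 CPM, rested on 1 cell with 91.5% of the UMIs, and 98.7% of the *Gcg* UMIs of that class were also in 1 cell.

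Few α-cells had an intermediate *Gcg* level. At 50000 CPM or more, a limit set after the values were seen, lay 266 vehicle and 429 FAKi cells, of which 222 and 375 were annotated as α-cells. Only 3 vehicle and 6 FAKi α-cells lay between 10000 and 50000 CPM. In cluster 5, 94.6% of vehicle cells (Clopper-Pearson interval 90.3 to 97.4) and 97.4% of FAKi cells (94.7 to 98.9) were above the limit. In cluster 9 the shares were 52.9% (41.9 to 63.7) and 69.0% (61.5 to 75.9).

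**Figure D2:**
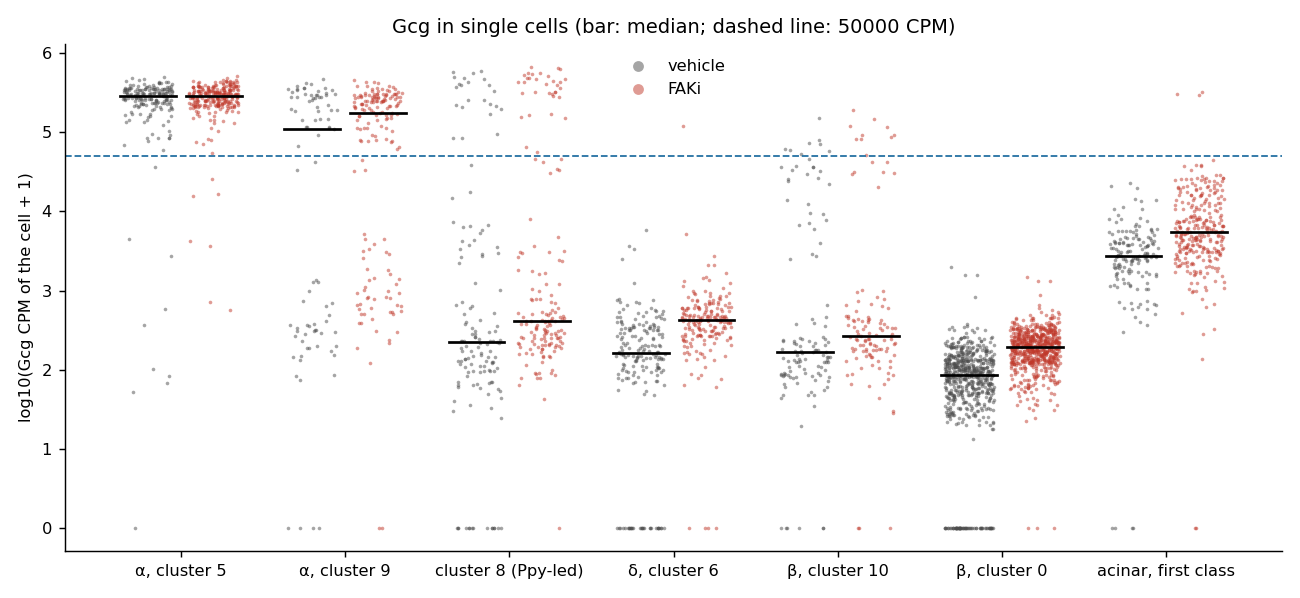
*Gcg* in single cells on the log10(CPM + 1) scale (y axis) in 7 clusters (x axis), for the vehicle library (grey) and the FAKi library (red). Black bars are medians and the dashed line is 50000 CPM. Cluster 5 lies almost wholly above the line, and clusters 9, 8 and 10 hold cells on both sides.

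Among the other hormones, *Ppy* and *Pyy* were often found in the *Gcg*-rich α-cells. *Ppy* reached 10000 CPM in 47 of the 222 vehicle cells (21.2%, 16.0 to 27.1) and in 49 of the 375 FAKi cells (13.1%, 9.83 to 16.9). *Pyy* reached it in 107 (48.2%, 41.5 to 55.0) and in 100 (26.7%, 22.3 to 31.4). *Sst* reached it in 0 of the 222 and in 2 of the 375 cells (0.53%, 0.065 to 1.91). No cell among them reached 50000 CPM of *Ins2*, an insulin gene held to a higher limit than the 10000 CPM above. Among *Gcg*-rich cells of all classes, 11 of 266 with vehicle and 17 of 429 with FAKi reached it. Of these, 8 and 13 were annotated as β-cells and 3 and 3 as δ-cells, so the α-cell annotation leaves them out. None of the *Ppy*-positive α-cells was called a doublet, a droplet with more than 1 cell, by scrublet. Their median depth was 15413 UMIs with vehicle and 16438 with FAKi, against 12973 and 13569 in the other *Gcg*-rich α-cells. The *Ppy*-positive cells had a median of 211561 CPM of *Gcg* with vehicle, and the others 304750. With FAKi the medians were 224235 and 279645 CPM. Cells of the same library share its free RNA and depth, and the part of doublets in this pattern was not tested further.

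**Figure D3:**
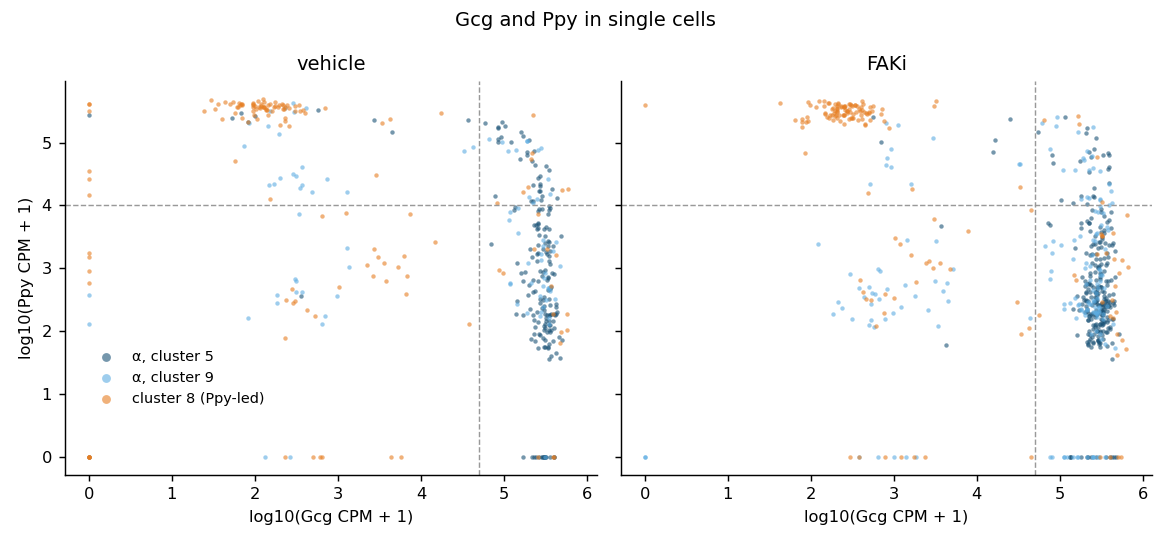
*Gcg* (x axis) and *Ppy* (y axis) in single cells of α-cell clusters 5 (dark blue) and 9 (light blue) and of cluster 8, led by *Ppy* and *Pyy* (orange), each on the log10(CPM + 1) scale, for the vehicle and the FAKi library. Dashed lines mark 50000 CPM of *Gcg* and 10000 CPM of *Ppy*, and 47 vehicle and 49 FAKi α-cells lie above both.

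The mean *Ttr* of a *Gcg*-rich α-cell was 15119 ± 12722 CPM (SD over 222 cells) with vehicle and 12717 ± 12030 CPM (SD over 375 cells) with FAKi. With the cells split by *Ttr* into 4 groups of like size, its median in the lowest group was 3752 CPM with vehicle and 2749 CPM with FAKi, and in the highest group 31617 and 27152 CPM. *Gpx3*, which encodes a secreted glutathione peroxidase, had a median of 753 and 517 CPM in the lowest group and of 1841 and 1384 CPM in the highest. Across the cells Pearson's r of *Ttr* with *Gpx3*, on log2(CPM + 50), was 0.40 over 222 vehicle cells and 0.52 over 375 FAKi cells, the highest of all genes with at least 300 UMIs in those cells of each library. With *Gc* it was 0.32 and 0.40, and with *Gcg* 0.31 and 0.39. These values describe cells that share a library, and *Ttr* had r of 0.15 and 0.24 with the log2 UMI count of the cell. In both libraries *Fos*, an immediate early gene, was among the 5 genes with the lowest r with *Ttr*.

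Between the libraries, *Gcg* and *Ttr* of α-cells differed little and *Gc* was lower with FAKi. The FAKi over vehicle ratio was 1.13 for *Gcg* (1.12 to 1.13), 0.96 for *Ttr* (0.95 to 0.97) and 0.68 for *Gc* (0.63 to 0.74). None of the 3 genes passed 1.5-fold, but *Gc* did so without islet hormone genes in the total (0.66) and with cells thinned to 1000 UMIs (0.58) or 5000 UMIs (0.66). Of 7808 genes with at least 100 UMIs in α-cells, 2.74% were at least 1.5-fold higher and 1.34% at least 1.5-fold lower with FAKi. The log2 ratio of *Gc* was -0.55 and was above that of 1.65% of those genes. The median *Gcg* of a cluster 5 cell was 287681 CPM with vehicle and 284249 CPM with FAKi. In *Gcg*-rich α-cells alone the ratio of *Ttr* was 0.86 and that of *Gc* 0.68. That of *Gcg* was 1.01, but these cells were selected by their *Gcg* level, so it is no separate check. In α-cells the summed level of *Ppy* and *Pyy* was 85523 CPM with vehicle and 34319 CPM with FAKi. That of 2 red cell genes was 858 and 9.32 CPM. Without islet hormone genes in the total, *Ppy* and *Pyy* among them, the ratio was 1.09 for *Gcg*, 0.93 for *Ttr* and 0.66 for *Gc*. Any other part of these genes in the ratios was not tested. How much of any ratio lies between mice and how much between libraries cannot be told apart in this design.

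**Figure D4:**
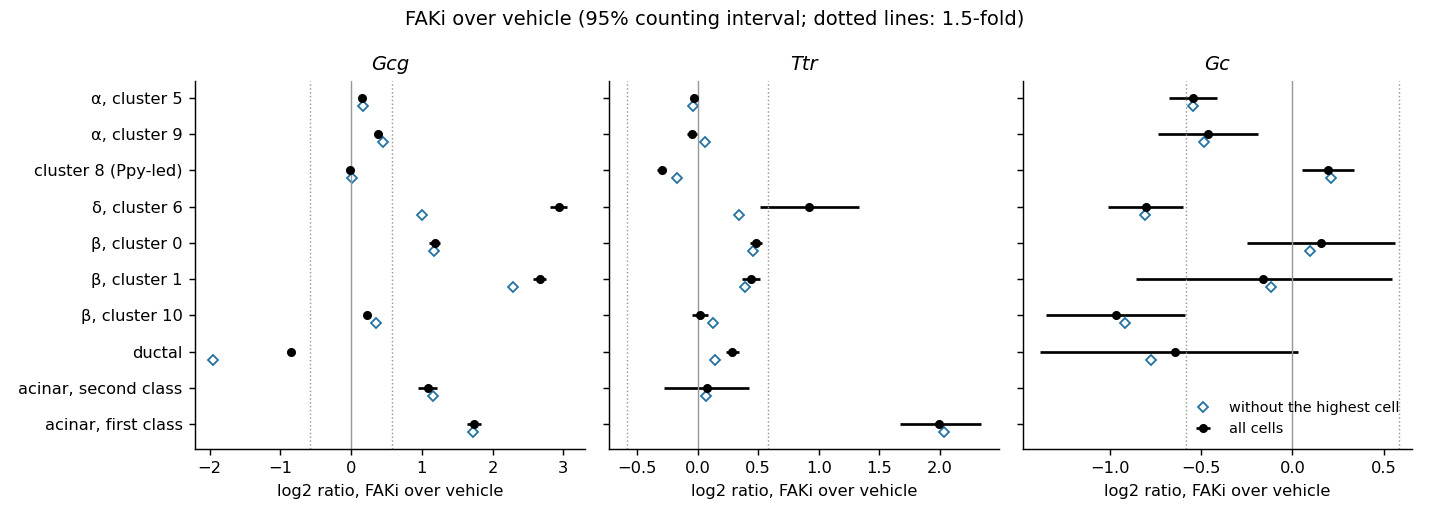
Log2 ratio of FAKi over vehicle (x axis) for *Gcg*, *Ttr* and *Gc* in 10 clusters or classes (y axis), with 95% counting intervals (black), and the same without the cell of most UMIs in each library (blue diamonds). Pairs with under 50 UMIs are left out, and dotted lines mark 1.5-fold. *Gc* lies below 0 in both α-cell clusters and in δ-cell cluster 6, and above 0 in cluster 8.

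*Gc* was lower with FAKi in both α-cell clusters, with ratios of 0.68 (0.62 to 0.75) in cluster 5 and 0.72 (0.60 to 0.88) in cluster 9. In δ-cell cluster 6 the ratio was 0.57 (0.50 to 0.66), and 2.31% of the 6056 genes compared in that cluster were at least 1.5-fold lower. In cluster 8 *Gc* was higher with FAKi, at 1.14 (1.04 to 1.26). In β-cell cluster 0 the ratio was 1.11 (0.84 to 1.48), and its interval held 1.

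*Gcg* was also higher with FAKi in β-cell clusters 0 and 1 and δ-cell cluster 6, but not only there. The FAKi over vehicle ratio of the median cell's *Gcg* CPM was 3.92 in background cells, 4.49 in pericytes and 3.14 in fibroblasts. It was 3.04 in ductal cells and 2.70 in the second acinar class, against 0.99 in α-cells. In the background classes the summed level had a ratio of 0.94 (0.92 to 0.96), but 61.0% and 37.9% of those UMIs were in 1 cell, and without these cells the ratio lay above 1. In β-cell cluster 0 the ratio was 2.27 (2.15 to 2.39), and the medians of 3 and 7 UMIs per cell stood beside 1 and 3 in background cells. In δ-cell cluster 6 the ratio was 7.65 (7.03 to 8.33), but 1 FAKi cell held 76.1% of the *Gcg* UMIs. Without the highest cell of each library it was 2.01. In β-cell cluster 1 the ratio was 6.35 (5.96 to 6.77), and 4.88 without the highest cells. The ratio of the median cells of cluster 1 was 2.29, and 14 of its 546 FAKi cells lay between 10000 and 50000 CPM and 3 above. Of its 305 vehicle cells 2 lay between these limits and 0 above. *Ttr* in β-cell cluster 0 had a ratio of 1.40 (1.35 to 1.44). β-cell cluster 1 was led by immunoglobulin and haemoglobin genes. *Ins2*, which like *Gcg* should be absent from background cells, had a median of 14 and 27 UMIs there. The part of free RNA in these ratios was not tested.

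The first acinar class, cluster 4, is of interest because the study follows acinar cells after FAKi. Its *Gcg* was at 2726 CPM (2556 to 2904) with vehicle and 9114 CPM (8897 to 9335) with FAKi, a ratio of 3.34 (3.12 to 3.58). *Gcg* was also higher with FAKi in the second acinar class, at 481 and 1020 CPM, a ratio of 2.12 (1.93 to 2.33). For the median cell's *Gcg* CPM the order was reversed, with ratios of 1.97 in the first class and 2.70 in the second. The summed *Ins2*, *Ppy* and *Pyy* of the first class were higher as well, with ratios of 1.67, 1.93 and 1.29. The cells of the first class were shallow, with a median of 1480 and 1140 UMIs, and the median cell held 5 and 6 *Gcg* UMIs. A *Gcg* level of 10000 CPM was reached by 9 of 161 vehicle cells and 87 of 297 FAKi cells. *Ttr* was at 238 and 949 CPM, a ratio of 3.99 (3.17 to 5.06), and there were 8.73 *Ttr* UMIs per 100 *Gcg* UMIs with vehicle and 10.4 with FAKi. In background cells under 50000 CPM of *Gcg* there were 32.5 and 12.9, and in α-cells 5.76 and 4.90. Among cells under 50000 CPM of *Gcg*, the acinar class held 26.3 and 46.7 summed *Gcg* UMIs for every 1000 *Ins2* UMIs and the background 5.32 and 8.81. The sums and the median cells differed in order, since the median acinar cell held 5 and 6 *Gcg* beside 129 and 175 *Ins2* UMIs, and the median background cell 1 and 3 beside 14 and 27. *Gc* was at 1 UMI in all vehicle cells of the class and 5 in all FAKi cells.

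The 99th percentile of *Gcg* in background cells was 9.48 UMIs with vehicle and 98 UMIs with FAKi. Above it lay 12.4% of vehicle cells of the first acinar class (7.76 to 18.5) and 4.71% of the FAKi cells (2.60 to 7.78). These shares depend on the limit and the depth, the former being 37.8% with cells thinned to 1000 UMIs and the latter 11.1% with the limit taken from background cells under 50000 CPM. In the second acinar class 26.7% of vehicle cells lay above the limit (17.8 to 37.4) and 0 of 114 FAKi cells (Clopper-Pearson upper bound 3.18%, and 2.63% as 3 counts of the total). The vehicle share was 6.98% with cells thinned to 1000 UMIs. In δ-cell cluster 6 the shares were 3.19% and 0.51%, and in all β-cells 4.93% and 2.02%. In β-cell cluster 0, 1.08% of vehicle cells lay above it and 0 of 675 FAKi cells (Clopper-Pearson upper bound 0.545%, and 0.444% as 3 counts of the total). In cluster 8 the shares were 25.0% and 22.1%. In β-cell cluster 10 they were 24.8% and 13.0%, and 5 of 30 and 11 of 15 of those cells were called doublets. Because the limits of 9.48 and 98 UMIs differ, the shares of the libraries were not compared.

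Genes of the pathways around the members were described by list. Of the prohormone processing and granule genes, 9 of 10 passed the count minimum in α-cells and none passed 1.5-fold, with a median log2 ratio of -0.07 against 0.03 over all genes. *Pcsk2*, which encodes PC2, was at 3594 CPM with vehicle and 3394 CPM in the FAKi α-cells, and *Pcsk1*, the convertase that yields GLP-1 in the gut, at 5.80 and 6.99 CPM. On CPM + 1, the scale of all α- over β-cell values of listed genes, *Pcsk2* was 2.87-fold and 3.04-fold higher in α-cells. *Scg2*, a granule protein gene, had a ratio of 0.74 (0.70 to 0.77).

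Of the α-cell transcription factors, 12 of 13 passed and none passed 1.5-fold, with a median of 0.16. *Pou3f4* had a ratio of 1.53 (1.09 to 2.17), but on CPM + 1, the scale of the list counts, it did not pass 1.5-fold. *Irx2* had a ratio of 1.17 (1.03 to 1.34) and *Irx1* one of 0.99 (0.85 to 1.15). *Irx1* was 58.1-fold and 54.9-fold higher in α- than in β-cells.

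Of the genes of glucagon receptors and α-cell regulation, 6 of 9 passed, 1 was higher and none lower, with a median of 0.27. Over all 7808 genes 2.74% were higher and 1.34% lower. The gene that was higher was *Sstr2*, which encodes the somatostatin receptor of α-cells, at 11.3 and 18.5 CPM (ratio 1.63, 1.14 to 2.37). *Gcgr*, the glucagon receptor, had 2 UMIs in all vehicle and 5 in all FAKi α-cells. *Slc38a5*, an amino acid transporter of α-cells, had a ratio of 1.17 (1.04 to 1.32).

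Of the transthyretin cargo, thyroid hormone and retinol genes, 4 of 10 passed and none passed 1.5-fold, with a median of -0.10. *Rbp4*, which encodes the plasma retinol carrier that binds transthyretin, was at 1484 CPM with vehicle and 1499 CPM in the FAKi α-cells and was 35.4-fold and 29.3-fold higher than in β-cells. *Slc16a10*, a transporter of aromatic amino acids and thyroid hormone, had a ratio of 0.81 (0.75 to 0.87). Of the vitamin D, albumin family and actin genes, 3 of 12 passed and none passed 1.5-fold, with a median of 0.11. *Vdr*, the vitamin D receptor, was at 49.3 and 53.4 CPM, and *Lrp2* and *Cubn*, receptors for the uptake of vitamin D-binding protein in the kidney, had 0 UMIs in α-cells of either library.

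Of the liver plasma proteins only *Serpina1a* passed, at 11.6 and 9.82 CPM, and *Alb* had 2 and 7 UMIs. Of the other α-cell enriched genes 7 of 9 passed and none passed 1.5-fold, with a median of 0.13, *Gpx3* having a ratio of 0.70 (0.68 to 0.73) and *Cltrn*, which encodes collectrin, one of 0.69 (0.67 to 0.72). Of the other islet hormones 2 of 6 were lower, against 1.34% of all 7808 genes, with a median of 0.06 over the list. *Ppy* was at 45503 and 16443 CPM, a ratio of 0.36, and *Pyy* at 40019 and 17876 CPM, a ratio of 0.45. In *Gcg*-rich α-cells alone the ratio of *Ppy* was 0.68 (0.67 to 0.69), which did not pass 1.5-fold, and that of *Pyy* 0.59. These cells held 62346 of the 172492 *Ppy* UMIs of the vehicle α-cells and 75073 of the 98819 of the FAKi α-cells.

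Genes most like each member were found by Pearson's r of log2(CPM + 1) over 24 points, the 12 annotated classes in both libraries, among 14092 genes. For *Gcg* the 5 highest included *Irx2* (0.88), *Galnt13* (0.88), *Tent5d* (0.87) and *Dbpht2* (0.87). For *Ttr* they were *Morn2* (0.86), *Spint2* (0.86), *Llgl2* (0.84), *Ccdc181* (0.84) and *Gcg* (0.84). For *Gc* the 5 highest included *Galnt13* (0.92), *Pyy* (0.92), *Calb1* (0.91) and *Hist3h2ba* (0.90). The classes of a library share its free RNA, and B-cells of the FAKi library rest on 9 cells.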

How the data were processed

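Droplet-based 3′ libraries were counted by the authors with Cell Ranger on mm10, and cells were filtered and annotated with Seurat 3.1 (names per the submitters' processing notes). The authors deposited raw UMI counts per gene and cell, and a table with the library, cluster and cell type of each cell. That table also gives the percent of mitochondrial counts, computed by the authors, with a highest value of 8.00 among the deposited cells. The replicate numbers in the labels are sequencing lanes, which the deposited table merges. The libraries named Control and Faki in the deposited table were read as vehicle and FAKi.

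Within each library, the UMIs of a gene in a class or cluster were added up and expressed per 1000000 UMIs of those cells (CPM), with exact Poisson 95% intervals. Ratios carry exact conditional binomial intervals and shares Clopper-Pearson intervals. All cover counting error only, since UMIs and cells are not replicates. Log2 ratios of lists used a pseudocount of 1 CPM and genes with at least 100 UMIs in α-cells of both libraries together. A difference past 1.5-fold on this scale was counted as called. Doublets were called per library with scrublet (scanpy 1.11.5, seed 0), 68 vehicle and 57 FAKi cells, and were kept except in an alternative. Depths lay between 504 and 135194 UMIs per cell. Ratios and intervals were tested on simulated Poisson sums over α-cells, the model that the intervals assume. That test holds no spread between cells and so does not cover it. Python 3.11.15, numpy 2.4.6, scipy 1.17.1 and pandas 2.3.3 were used.

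The members, gene lists and alternatives were chosen with earlier results of these data known. Named were the members, the 5 genes most like each over the annotated classes, and genes of the lists. Some genes that this rule names are not reported here. The limits on *Gcg*-rich and *Ppy*-positive cells, the use of clusters in place of the δ-cell class, the genes that vary with *Ttr* among α-cells the limit from background cells under 50000 CPM and the results without the highest cell were chosen after the values were seen. The promoters are from RefSeq on GRCm38.p6, where 2 of the 3 members matched.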

Additional observations from a re-analysis of the deposited data

Results flagged for a closer look

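Among the numbered α-, β- and δ-cell clusters, ductal cells and the first acinar class, ratios of FAKi over vehicle were singled out where a member passed 1.5-fold in 1 cluster or class while its counting interval lay on the other side of 1 in another. With 1 library per condition, the difference between clusters was not tested.

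*Gcg* was higher with FAKi in β-cell cluster 0 (2.27), β-cell cluster 1 (6.35) δ-cell cluster 6 (7.65) and the first acinar class (3.34), and lower in ductal cells (0.55). Few cells held most of the ductal *Gcg*, with 93.7% of the vehicle UMIs in 7 of 498 cells and 71.0% of the FAKi UMIs in 1 of 156 cells. Without the highest cell of each library the ductal ratio was 0.26, while the median ductal cell went the other way, with 1.5 UMIs with vehicle and 5 with FAKi. *Ttr* was higher in δ-cell cluster 6 (1.89), on 76 vehicle and 162 FAKi UMIs, and 1.27 without the highest cell of each library. *Ttr* was also higher in the first acinar class (3.99), on 84 vehicle and 697 FAKi UMIs. *Gc* was lower in β-cell cluster 10 (0.51) and δ-cell cluster 6 (0.57), whereas it was higher in cluster 8 (1.14).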

How the results depend on the processing

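No paired analysis was possible because the replicate numbers are lanes that the deposited table merges into 1 library per condition, and for the same reason no replicate could be left out. In α-cells the ratios of *Gcg* and *Ttr* stayed within 1.5-fold of 1 under every alternative run, though *Gcg*-rich cells are selected by *Gcg*. The ratio of *Gc* stayed below 1. It passed 1.5-fold without islet hormone genes in the total (0.66) and with cells thinned to 1000 UMIs (0.58) or 5000 UMIs (0.66). The ratio of *Ttr* turned from 0.96 to 1.13 in cells under 5% mitochondrial counts. With vehicle, *Gc* in α-cells over all δ-cells passed 1.5-fold after thinning to 1000 UMIs (1.54). Over cluster 6 it did so without hormone genes (1.57) and after thinning to 1000 (2.05) or 5000 UMIs (1.51). The ratio of *Gcg* changed direction in endothelial cells without doublets (0.997), in pericytes under 5% mitochondrial counts (4.57) and in T-cells without the highest cell (1.99), as did *Ttr* in T-cells (1.22).

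Of the shares of cells above the background limit, 9 of the values under an alternative lay outside 1.5 times the reported one and 21 within. Of the CPM levels under an alternative, 505 lay outside the counting interval of the reported value and 383 within, and of the UMIs per *Gcg* UMI 163 lay outside and 242 within. Thinning to 1000 UMIs gave 2.63% of vehicle β-cells (from 4.93%), 1.60% of vehicle cluster 6 (from 3.19%), 37.8% of the vehicle first acinar class (from 12.4%) and 6.98% of the second (from 26.7%). Without doublets the FAKi shares were 1.15% of β-cells (from 2.02%) and 1.03% of cluster 6 (from 0.51%). With a limit from background cells under 50000 CPM they were 1.03% of cluster 6, 11.1% of the first (from 4.71%) and 2.63% of the second acinar class (from 0%). The list medians kept their direction and side of 1.5-fold in all 32 comparisons with an alternative pseudocount, count minimum or doublet filter. The number of *Gcg*-rich cells was 285 and 489 at 20000 CPM, and 243 and 401 at 100000 CPM. Levels in classes of few cells are limited by depth and by single cells.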
